A study of Mus musculus with 6 samples.

Results

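A set of 9 genes that mark excitatory neurons of the cortex and hippocampus, Neurod6, Neurod2, Rorb, Crym, Tbr1, Prox1, Fezf2, Cux2 and Wfs1, was followed in whole brains of periphilin (Pphln1) heterozygotes and wild-type littermates. Every probe set (a group of short probes that together read a given transcript) whose platform annotation gives exactly 1 gene, and that gene being among these 9, was taken. That gave 17 probe sets for 9 genes, of 34945 probe sets annotated to 1 gene and 18193 genes in all. The heterozygous group held 3 periphilin +/- knockout mice and the control group 3 C57BL/6 wild-type littermates. All 6 were males aged 2 months, each brain was snap-frozen and hybridised to its own Affymetrix array, and no treatment was given in the labels. The labels do not say which part of Pphln1 was disrupted. Values are intensities, the brightness of a probe set on a linear scale, and log2 values are of intensity plus 16, a scale that understates differences of dim probe sets.

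The cerebral cortex is built in layers, and its projection neurons take their layer and target from transcription factors that restrain each other during development. Neurod2 and Neurod6 are basic helix-loop-helix factors of glutamatergic neurons in cortex and hippocampus, and they bind short DNA motifs called E-boxes. Cux2 marks the upper layers and Rorb the fourth layer, whereas Fezf2 and Tbr1 specify subcerebral and corticothalamic neurons of the deep layers. Crym binds thyroid hormone and is found in deep-layer and hippocampal neurons, Prox1 sets the identity of dentate granule cells, and Wfs1, a protein of the endoplasmic reticulum, marks pyramidal cells of hippocampal field CA1. None of the 9 is restricted to these places: Neurod2 is also expressed in cerebellar granule cells, Rorb in the thalamus, Tbr1 in the olfactory bulb and Wfs1 in the striatum. In whole-brain RNA, fewer cells of a type and less RNA per cell cannot be told apart.

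RefSeq promoter windows on GRCm38.p6 were found for 8 of the 9 genes, 11 windows in all. Shown here are the 250 bases before the start of Neurod6 and Rorb, the members with the largest differences in each direction, and of Neurod2, the closest relative of Neurod6 among them. Capitals mark every match to the E-box CANNTG, which reads the same way on both strands.
Neurod6, chr6:55681264-55681513, minus strand: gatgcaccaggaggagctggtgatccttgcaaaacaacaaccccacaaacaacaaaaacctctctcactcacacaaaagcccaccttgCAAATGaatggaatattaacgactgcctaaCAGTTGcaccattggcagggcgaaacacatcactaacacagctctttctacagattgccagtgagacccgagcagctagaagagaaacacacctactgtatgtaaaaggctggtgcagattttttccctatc
Neurod2, chr11:98329646-98329895, minus strand: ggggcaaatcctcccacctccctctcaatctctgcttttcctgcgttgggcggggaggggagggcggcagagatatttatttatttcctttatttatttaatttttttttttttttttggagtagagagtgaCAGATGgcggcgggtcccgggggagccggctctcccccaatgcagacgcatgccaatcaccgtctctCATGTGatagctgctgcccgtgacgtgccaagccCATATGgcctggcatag
Rorb, outer start, chr19:19111197-19111446, minus strand: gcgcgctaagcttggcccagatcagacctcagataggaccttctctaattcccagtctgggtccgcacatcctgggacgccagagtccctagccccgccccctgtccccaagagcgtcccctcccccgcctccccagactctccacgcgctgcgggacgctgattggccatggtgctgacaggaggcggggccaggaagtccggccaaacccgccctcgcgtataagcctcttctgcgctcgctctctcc
Rorb, inner start, chr19:19001118-19001367, minus strand: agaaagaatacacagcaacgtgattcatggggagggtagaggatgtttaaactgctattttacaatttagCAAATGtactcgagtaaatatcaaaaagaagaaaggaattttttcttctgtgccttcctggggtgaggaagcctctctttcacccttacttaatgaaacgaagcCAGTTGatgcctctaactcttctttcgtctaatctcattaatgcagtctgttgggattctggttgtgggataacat
Neurod6 held 2 matches and Neurod2 held 3. Rorb held none before the outer start and 2 before the inner start. Of the 11 windows of the members 8 held a CANNTG, against 66.2% of 32851 windows of this length in the RefSeq table. The narrower CAGATG, searched on both strands and a special case of CANNTG, stood in 4 of the 11, among them Neurod2, against 14.4% of all windows. TATAAA, also searched on both strands, stood in 2 of the 11, of Cux2 and Prox1, against 12.4%. A match describes letters in a window and not a bound site.

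The arrays had been scaled to a common level, with medians of 31.2 to 34.5, and any pair of arrays correlated at 0.978 to 0.985. Pphln1 itself did not pass the test: its probe set 1434822_at averaged 319.8 in heterozygous and 299.7 in wild-type brains (log2 difference 0.08, SE 0.11), and 1435766_at averaged 37.2 and 52.3 with no overlap (-0.36, SE 0.18). Markers of whole brain were bright on every array, such as Snap25 of neurons (7406 to 8874) and Mbp of oligodendrocytes (7854 to 10403). Pituitary hormone signal was uneven, with Prl at 8306 in wild type 1 and 3730 in heterozygous 3 against 38.8 to 456 in the other 4 brains, and fits without each of them are given below. The signal of the 18S ribosomal RNA control ran from 80.3 in heterozygous 1 to 179 in wild type 2.

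No member passed the test between genotypes. Of the 17 probe sets, 15 were bright enough to test, and 0 were called at an adjusted p of 0.05 by limma over all 27022 probe sets tested, where 0.0148% were called. The adjusted p of the 15 ran from 0.956 to 0.998. At an unadjusted limma p below 0.05 there were 2 of 15, against 4.83% of all probe sets. The genotypes did not overlap for 3 of 15, Neurod6, Rorb and Crym at their brightest probe sets, against 10.2% of all probe sets tested. By the brightest probe set, 4 genes were higher and 5 lower in sign in heterozygous brains. The median log2 difference of the 9 was -0.012, beside 0.0068 over 13024 genes.

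Neurod6 was the member with the largest difference. Its single probe set, 1418047_at, measured 284, 315 and 369 in heterozygous brains 1 to 3 and 371, 414 and 384 in wild-type brains 1 to 3. Every heterozygous brain lay below every wild-type brain, although heterozygous 3 and wild type 1 were nearly equal. The means were 323 ± 43.1 (SD, n = 3) and 389.7 ± 22.3 (n = 3). The log2 difference was -0.27 (SE 0.11, 95% confidence interval -0.51 to -0.025, limma adjusted p = 0.956). The exact two-sided permutation p was 0.1, the smallest that 3 against 3 brains allow. It was lower in sign in each fit that left out 1 brain, from -0.36 to -0.18, at -0.30 without wild type 1 and -0.36 without heterozygous 3. The confidence limits here and below are those of single probe sets and are not adjusted.

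Neurod2 gave no such pattern. Its brightest probe set, 1435411_at, measured 269, 233 and 199 in heterozygous brains and 194, 256 and 184 in wild-type brains. The groups overlapped, with heterozygous 1 and wild type 2 highest. The log2 difference was 0.14 (95% confidence interval -0.18 to 0.46). The second tested probe set, 1418995_at, measured 157, 141 and 112 against 179, 118 and 119. Its log2 difference was -0.0057 (95% confidence interval -0.38 to 0.37), and it was highest in wild type 1. The remaining one, 1444362_at, read 0.557 to 3.24 and was too dim to test. The intervals of Neurod6 and Neurod2 overlap, and the difference between these 2 relatives was not tested.

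**Figure D1:**
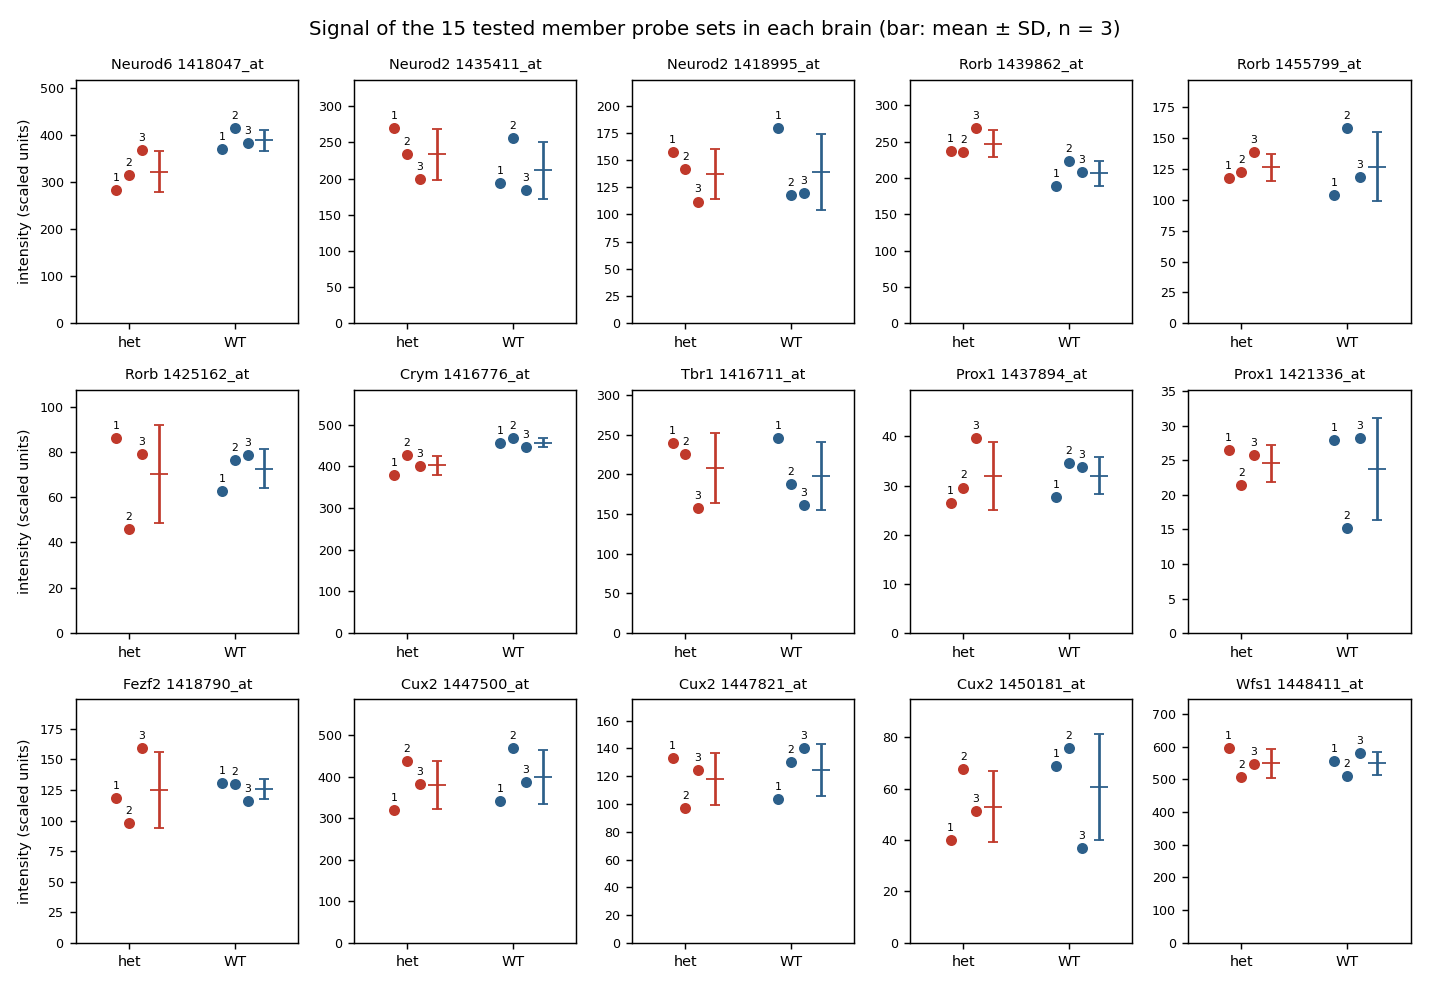
Intensity (scaled units, axes from 0) of the 15 tested member probe sets in each brain, numbered 1 to 3 within heterozygous (het, red) and wild type (WT, blue), with the mean ± SD of 3 brains beside the points. Neurod6 and Crym sit lower and Rorb 1439862_at higher in every heterozygous brain, and the groups of the other 12 panels overlap.

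Among the genes of the upper layers, Rorb, a nuclear receptor of layer 4 neurons, was without overlap between genotypes at its brightest probe set alone. At 1439862_at it measured 237, 236 and 268 in heterozygous brains and 188, 223 and 209 in wild-type brains. No wild-type brain reached the lowest heterozygous brain. The log2 difference was 0.24 (SE 0.11, 95% confidence interval 0.0045 to 0.48, limma adjusted p = 0.956, exact permutation p = 0.1). Fits without 1 brain gave 0.18 to 0.29, with 0.18 without wild type 1 and 0.18 without heterozygous 3. At 1455799_at Rorb measured 118, 123 and 139 against 104, 158 and 119, with the wild-type brains spanning the heterozygous ones. At 1425162_at it measured 86.0, 45.8 and 79.0 against 62.9, 76.5 and 78.6. The log2 differences of these probe sets were 0.012 and -0.068, with intervals of -0.32 to 0.34 and -0.50 to 0.36. Averaged over the 3 probe sets the difference of Rorb was 0.062 (limma adjusted p = 0.987), so its position among the members rests on 1 probe set.

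Cux2, a homeobox factor of the upper layers, spread more between brains of a genotype than between genotypes. At 1447500_at it measured 320.1, 437 and 382 in heterozygous and 340, 469 and 387 in wild-type brains. In both genotypes brain 2 was highest and brain 1 lowest. The log2 difference was -0.065 (95% confidence interval -0.37 to 0.24). At 1447821_at it measured 133, 97.3 and 124 against 104, 130 and 140, and at 1450181_at 39.98, 67.6 and 51.3 against 68.9, 75.8 and 37.0. Their log2 differences were -0.069 and -0.13, so all 3 probe sets were lower in sign with intervals that include 0.

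In the deep layers, Crym, the thyroid hormone binding protein, was the last of the 3 members without overlap. Its probe set 1416776_at measured 379, 426 and 401 in heterozygous and 456, 467 and 446 in wild-type brains. The brains within a genotype were close together, with SDs of 23.7 and 10.4 around means of 402 and 457. The log2 difference was -0.18 (SE 0.088, 95% confidence interval -0.37 to 0.016, limma adjusted p = 0.956, exact permutation p = 0.1). Fits without 1 brain gave -0.22 to -0.14.

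Tbr1, a T-box factor of corticothalamic neurons, spread widely inside both groups. At 1416711_at it measured 240, 225 and 157 in heterozygous and 245, 188 and 162 in wild-type brains. The groups covered the same range, and the log2 difference was 0.059 (95% confidence interval -0.32 to 0.44). Fezf2, the zinc finger factor of subcerebral projection neurons, measured 118, 97.8 and 159 against 131, 130 and 116 at 1418790_at. The SD was 31.3 in heterozygous and 8.32 in wild-type brains, and both the highest and the lowest brain were heterozygous. Its log2 difference was -0.028 (95% confidence interval -0.38 to 0.32).

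Wfs1 and Prox1, the members that mark field CA1 and the dentate granule cells, lay closest to a difference of 0 by their brightest probe sets. Wfs1 at 1448411_at measured 596, 508 and 546 in heterozygous and 556, 510 and 580.2 in wild-type brains. Its log2 difference was 0.0018 (95% confidence interval -0.21 to 0.21). As a ratio on this scale the limits were 0.867 and 1.16. Prox1 was the dimmest member. At 1437894_at it measured 26.4, 29.6 and 39.6 against 27.7, 34.6 and 33.8, close to the limit of 18.4 below which probe sets were not tested. Its log2 difference was -0.012 (95% confidence interval -0.41 to 0.38), and at 1421336_at it was 0.045 (-0.40 to 0.49). The remaining probe set, 1457432_at, read 7.54 to 19.7 and was too dim to test. At such signals a real difference would be compressed on this scale.

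**Figure D2:**
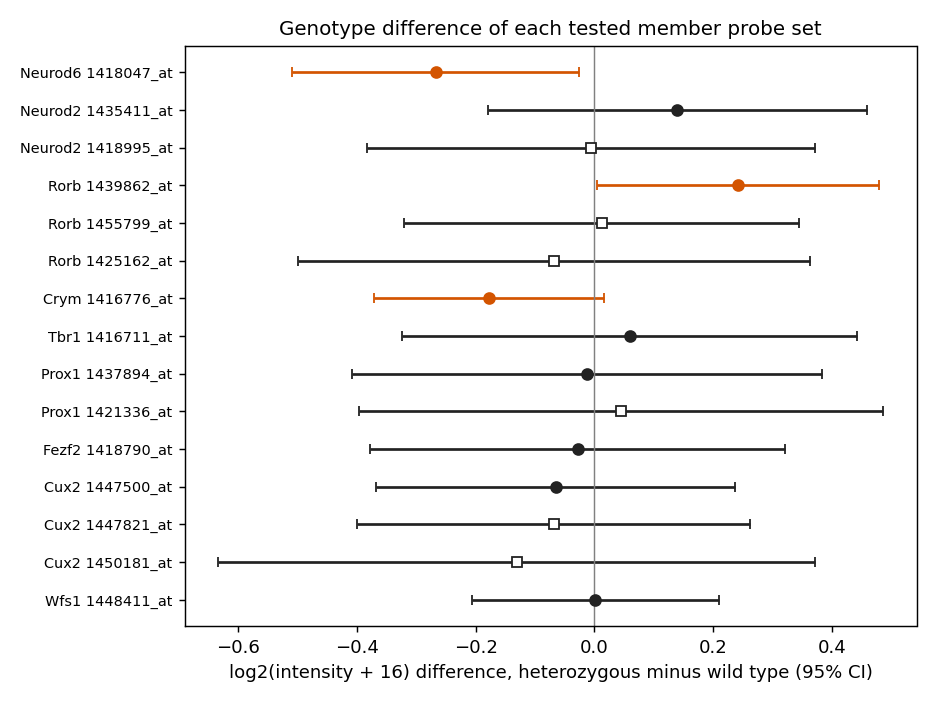
Difference in log2(intensity + 16), heterozygous minus wild type, of each tested member probe set with its unadjusted 95% confidence interval (3 brains per genotype). Filled circles are the brightest probe set of a gene, open squares the others, and orange marks the 3 whose genotypes do not overlap, at -0.27 (Neurod6), 0.24 (Rorb) and -0.18 (Crym).

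Within each brain the members lay on both sides of their own means. By their brightest probe sets, the number of members above their own 6-brain mean was 4 in each heterozygous brain and 5, 6 and 5 in wild-type brains 1 to 3. The median deviation of the 9 ran from -0.063 in heterozygous 1 to 0.084 in wild type 2 on the log2 scale. Heterozygous 1 held the lowest value of 4 members (Neurod6, Crym, Prox1 and Cux2) and the highest value of 2 (Neurod2 and Wfs1). Wild type 2 held the highest value of Neurod6, Crym and Cux2. Heterozygous 3 was highest for Rorb, Prox1 and Fezf2 and lowest for Tbr1. The range over the 6 brains was widest for Fezf2, at 0.62 on the log2 scale, and narrowest for Wfs1, at 0.22. The median spread within a genotype was an SD of 0.17 for the members and 0.15 over all genes tested.

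**Figure D3:**
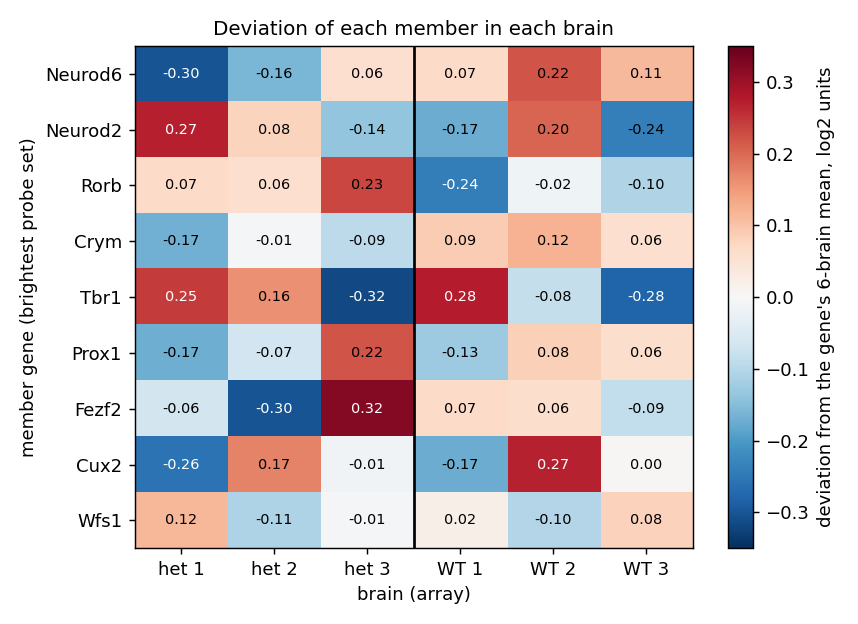
Deviation of each member's log2 value (brightest probe set) from its own mean over the 6 brains, for heterozygous (het) and wild-type (WT) brains 1 to 3; red is above and blue below the mean. Every brain holds both colours, with 4 to 6 of 9 members above their mean.

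Pairs of members were then compared over the 6 brains. Of the 36 pairs 16 had a positive and 20 a negative Pearson correlation, with a median r of -0.13. For deviations from the genotype means 19 of the 36 were positive and the median r was 0.023. Over all pairs of the 13024 genes the median was 0.0018. For 2 member pairs (5.56%) r over the 6 brains was 0.8 or more in absolute value, and likewise for 6.27% of all gene pairs. For the deviations r ran from -0.94 (Crym with Wfs1) to 0.94 (Neurod6 with Prox1), so a median near 0 hides strong values of both signs. The share of deviations at 0.8 or more was not computed over all gene pairs, so no background for it is given. After Benjamini-Hochberg adjustment over the 36 pairs 0 passed, with a lowest adjusted exact permutation p of 0.55 for r and 0.60 for rho. Without adjustment 2 pairs had an exact permutation p below 0.05 for r (Tbr1 with Prox1, Cux2 with Wfs1) and 2 for rho (Tbr1 with Prox1, Neurod6 with Crym).

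The most opposed pair was Tbr1 and Prox1, with r = -0.93 (exact permutation p = 0.0153, adjusted 0.55) and Spearman's rho = -0.89. Without the 2 brains farthest from the median of Tbr1 r was -0.97 over 4 brains, and r of the deviations from the genotype means was -0.93. The second Prox1 probe set did not follow the first: 1437894_at and 1421336_at correlated at -0.23. Cux2 and Wfs1 came next, with r = -0.86 (exact permutation p = 0.0306, adjusted 0.55) and rho = -0.77, and r = -0.65 without the 2 farthest brains. Neurod6 and Crym were the most alike, with r = 0.79 (exact permutation p = 0.0681, adjusted 0.803), rho = 0.89, and r = 0.65 without the 2 farthest brains. Both were lower in heterozygous brains, and r of their deviations from the genotype means was 0.41. For Neurod6 and Rorb, which lay on opposite sides between genotypes, r was -0.30 over the 6 brains and 0.82 for those deviations. Neurod6 and Neurod2 correlated at -0.47 (exact permutation p = 0.357, adjusted 0.803).

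**Figure D4:**
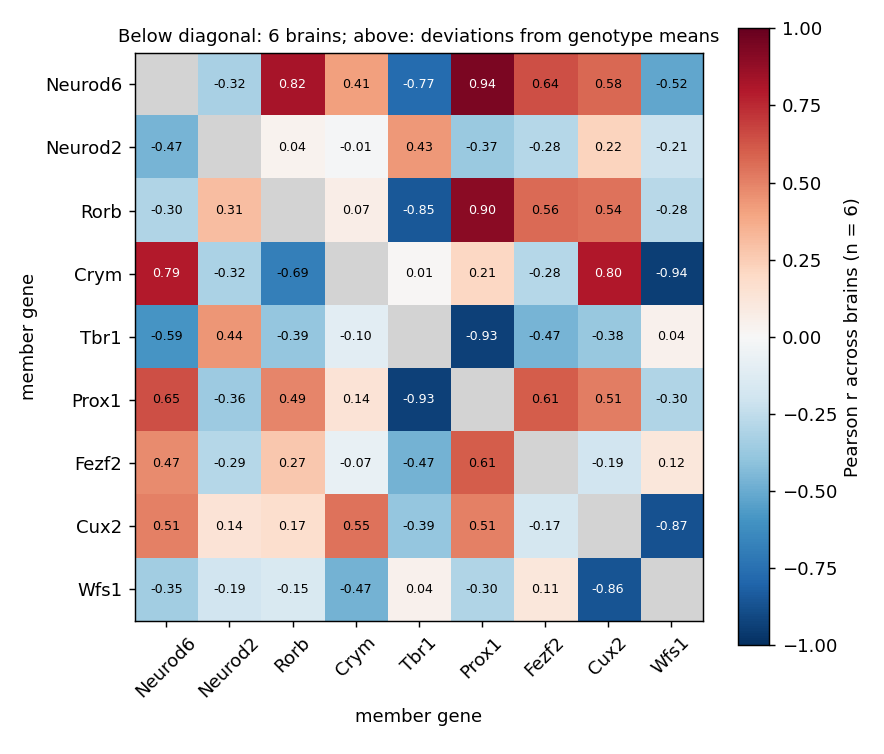
Pearson r between members across the 6 brains (below the diagonal) and of their deviations from the genotype means (above), by brightest probe set; red is positive and blue negative. Both signs are common, from -0.93 (Tbr1 with Prox1) to 0.79 (Neurod6 with Crym) below the diagonal.

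Probe sets of the same gene were a measure of how far such patterns can be read. Of the 8 pairs of probe sets of Neurod2, Rorb, Prox1 and Cux2, the correlation over 6 brains ran from -0.66 (Cux2 1447821_at with 1450181_at) to 0.55 (Rorb 1439862_at with 1455799_at, and Cux2 1447500_at with 1450181_at). None passed after adjustment over the 8 (lowest adjusted exact permutation p = 0.778). Differences between brains in a single probe set were seldom shared by a second probe set of its gene, and which of them read which transcript end or isoform was not examined.

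The 18S control signal moved with the brightest probe set of Cux2 alone after adjustment over the 9 members, for r but not for rho. It was taken as log2 of the mean of 3 control probe sets and set against the 9 brightest probe sets after the data had been seen. Cux2 followed it most closely, with r = 0.90 (exact permutation p = 0.00417, adjusted over 9 relations 0.0375) and rho = 0.94 (p = 0.0167, adjusted 0.15). Without the 2 farthest brains r was 0.79, and r of the deviations from the genotype means was 0.91. The other Cux2 probe sets gave r = 0.033 and 0.65, and adjusted over all 15 probe sets the p of 1447500_at was 0.0625. Wfs1 ran the other way (r = -0.81, exact permutation p = 0.0306, adjusted 0.138; rho = -0.89). Neurod6 and Crym had r of 0.68 and 0.59, which turned to -0.61 and -0.89 without heterozygous 1 and wild type 2. With the 18S signal as a covariate the log2 difference was -0.21 for Neurod6, 0.28 for Rorb and -0.16 for Crym (limma adjusted p = 0.810, 0.733 and 0.849). What the 18S signal reflects was not tested.

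**Figure D5:**
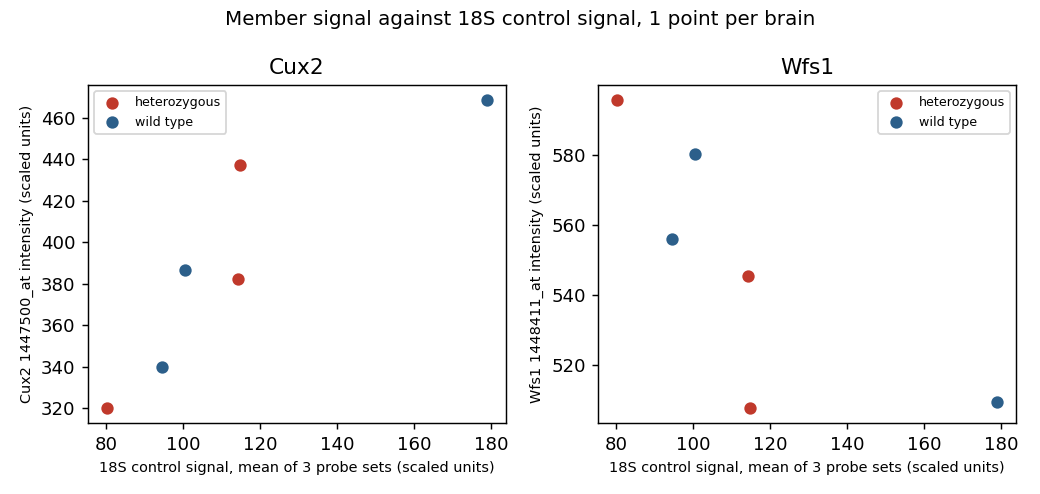
Intensity of Cux2 1447500_at and Wfs1 1448411_at (vertical, scaled units, not from 0) against the mean intensity of the 3 18S control probe sets (horizontal), 1 point per brain, heterozygous red and wild type blue. Cux2 spans 320.1 to 469, higher where 18S is higher, and Wfs1 spans 508 to 596, lower where 18S is higher.

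For each member the gene with the most similar profile over the 6 arrays was looked up among 13023 others by Pearson r. These were Wdr47 for Neurod6 (0.99), Rps14, a ribosomal protein gene read by a probe set that may also detect related copies, for Neurod2 (0.99), Kcnk10 for Rorb (0.98), Arhgap10 for Crym (0.99) and Ccdc130 for Tbr1 (0.99). For Prox1 it was Mob2 (0.99), for Fezf2 Glb1l (0.99), for Cux2 Akap5 (0.996) and for Wfs1 Cdca7l (0.99). With 6 arrays such values are common: between 11 (Fezf2) and 59 (Wfs1) genes reached an r of 0.95 with a member. The closest other member ranked from 476 for Crym (with Neurod6) to 5859 for Wfs1 (with Fezf2) among the 13023. So few members seldom supply the top rank among 13023 genes, so these ranks do not measure likeness within the set.

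Other genes of the same neurons were taken from 6 lists, covering upper and deep cortical layers, cortical and hippocampal excitatory neurons at large, the CA fields, the dentate gyrus and relatives or partners of the NeuroD factors. Of 63 genes listed 53 were tested, and 0 passed in either direction (limma, adjusted over all probe sets). Of the 53, 6 had an unadjusted limma p below 0.05 and 8 were without overlap between genotypes, beside 4.83% and 10.2% of all probe sets tested. The counts are of genes by their brightest probe set, whereas the shares include every tested probe set. In sign 21 were higher and 32 lower, and the median log2 difference was -0.066. The median was -0.066 for 9 upper-layer genes, -0.012 for 13 deep-layer genes, -0.094 for 9 genes of excitatory neurons at large, 0.0023 for 9 genes of the CA fields, -0.13 for 8 dentate genes and -0.024 for 5 NeuroD relatives and partners.

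The highest and lowest gene of each list by moderated t show what lay around the members. In the upper layers Lmo4, a LIM-domain regulator, measured 836, 805 and 745 in heterozygous and 646, 723 and 705 in wild-type brains (log2 difference 0.20, SE 0.087). Scnn1a, a sodium channel subunit of layer 4, was dim and scattered (-0.61, SE 0.35). In the deep layers Ccn2, a secreted matrix protein of the subplate, measured 244, 244 and 253 against 303, 302 and 327. Its log2 difference of -0.31 (SE 0.093, limma adjusted p = 0.956) was larger than that of any of the 9 members, with no overlap between genotypes, and Hs3st4 lay at the other end at 0.12.

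Camk2a and Nrgn, a kinase and a calmodulin-binding protein of the postsynapse, were the extremes of the excitatory list in opposite directions. Camk2a 1457311_at was at 0.47 (SE 0.12) and Nrgn at -0.37 (SE 0.087), and the other 4 tested Camk2a probe sets lay between -0.12 and 0.24. The list was not balanced in sign, with 3 of its 9 tested genes higher and 6 lower. At an unadjusted limma p below 0.05 there were 3 of the 9, beside 4.83% of all probe sets. In the CA fields Zbtb20, a zinc finger factor needed for hippocampal pyramidal neurons, measured 525, 543 and 547 against 662, 633 and 708 at its brightest probe set (-0.30, SE 0.084). Its other 8 tested probe sets lay between -0.24 and 0.19, and Grik4, a kainate receptor subunit, was at 0.22 (SE 0.15). By moderated t Plk5 at 0.26 and Sema5a at -0.25 were the dentate extremes, although Dsp (-0.30) and C1ql2 (-0.26) had lower differences. The E-proteins Tcf3 at 0.15 and Tcf12 at -0.16 were those of the NeuroD list, E-proteins being the dimer partners of such factors.

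Markers of the other cells in a whole brain were read beside the members from 12 lists, and none of their genes passed either. Genes named here are the highest and lowest of each list by moderated t, which need not have the largest differences. All 7 general neuron markers were higher in sign (median log2 difference 0.080), from Rbfox3 at 0.0055 to Stmn2 at 0.12. Of all genes tested 52.0% were higher in sign, and Rbfox3 changed sign under other settings, with -0.0090 under quantile normalization. The number of the 7 above their own 6-brain mean was 6, 1 and 5 in heterozygous brains 1 to 3. In wild-type brains 1 to 3 it was 3, 2 and 3. Interneuron genes had a median of -0.0031, from Slc32a1 at -0.17 to Pvalb at 0.091. The medians were 0.051 for the cerebellum, with Fat2 at 0.35 and En2 at -0.30, and 0.089 for the striatum, with Drd2 at 0.20 and Tac1 at -0.14. For the thalamus the median was 0.10 (Prkcd 0.17, Tcf7l2 -0.20) and for the olfactory bulb -0.037 (Doc2g 0.29, Omp -0.54). Astrocyte genes had a median of -0.031 (Aldoc 0.16, Slc1a3 -0.27), oligodendrocyte genes 0.016 (Mbp 0.10, Cldn11 -0.21), microglial genes 0.020 (Tmem119 0.13, Cx3cr1 -0.34) and endothelial genes 0.021 (Kdr 0.33, Flt1 -0.24). Choroid plexus genes had a median of -0.032 (Ttr 0.13, Clic6 -0.13). Pituitary genes had a median of -1.81, with Pomc at -2.09 and Cga at -1.07, and Cga was at 0.74 without wild type 1. Whether the members' differences depend on the share of any of these cells was not tested.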

How the data were processed

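The 6 arrays, 3 per genotype, came as a single table of probe-set intensities deposited by the authors. No label names the software that summarised the probes. The deposited intensities share a mean of 150.0 over the central 96% of values of each array, a sign of scaling. Of 45101 probe sets 64 were controls, 34945 had a single gene in the platform annotation, 932 had several and 9160 are unnamed here; 34741 of the single genes were matched to current RefSeq symbols.

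Values were transformed as log2(intensity + 16), with no further normalization. Probe sets at or below the 40th percentile of mean log2 signal (an intensity of 18.4) were not tested, which left 27022. Genotypes were compared with limma 3.58.1 in R 4.3.3 (lmFit, eBayes with intensity trend), two-sided; p-values were adjusted by Benjamini-Hochberg over every tested probe set and called at 0.05. The fits were tested on simulated data with differences far larger than those of the members, which does not show how small a difference could be found. Exact permutation tests ran over brains (3 against 3) and over pairings of 6 brains. A gene stands by its brightest tested probe set.

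Genes named are all member probe sets, the highest and lowest gene by moderated t of each list, and the gene most correlated with each member. Members and lists were chosen with earlier results of these data known. The number of arrays limits the precision. Alternative settings were median centring, quantile normalization, pseudocounts of 1 and 64, no filter or a filter at the 60th percentile, eBayes without trend or robust, array weights, a replicate block, gene means and leaving out each array; the 18S covariate was added after seeing the data.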

Additional observations from a re-analysis of the deposited data

How the results depend on the processing

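No member probe set was called in the 17 alternatives that test single probe sets, and no listed gene in all 18. In the fit reported above 0 of the 15 member probe sets were called as well. The lowest limma adjusted p of a member in the alternatives was 0.664 (Neurod6 with the replicate block, where its log2 difference stayed -0.27). Of the 15 tested member probe sets, 4 kept their sign in every fit: Neurod6, Crym, Neurod2 1435411_at and Rorb 1439862_at. Other differences changed sign, with no cause tested. Many of them lie near 0, but not those of Cga (-1.07) and Flt1 (-0.24), which changed sign when single brains were left out. Under quantile normalization Rbfox3 was at -0.0090, Mbp at -0.024 and Ttr at -0.019. Under median centring Rorb 1455799_at was at -0.023, Wfs1 at -0.033 and Rbfox3 at -0.030. With array weights Prox1 1437894_at was at 0.024, Fezf2 at 0.0040, Wfs1 at -0.018 and Rbfox3 at -0.015. With gene means Rorb was at 0.062, against 0.24 by its brightest probe set, Prox1 was at 0.017 and Rbfox3 at -0.00080. With the 18S covariate Tbr1 was at -0.00054, Prox1 1437894_at at 0.042, Prox1 1421336_at at -0.063, Cux2 1447500_at at 0.044, Wfs1 at -0.046 and Rbfox3 at -0.053.

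With single brains left out, the median member difference ran from -0.075 to 0.028, lowest without heterozygous 3 and highest without wild type 2, and the median correlation of member pairs from -0.13 to 0.031, highest without heterozygous 1. Over the same fits the differences that changed sign ran as follows. Neurod2 1418995_at ran from -0.10 to 0.17, Rorb 1455799_at from -0.11 to 0.16, Rorb 1425162_at from -0.21 to 0.16, Tbr1 1416711_at from -0.066 to 0.23. Prox1 1437894_at ran from -0.12 to 0.071, Prox1 1421336_at from -0.12 to 0.13, Fezf2 1418790_at from -0.20 to 0.12, Cux2 1447500_at from -0.17 to 0.053. Cux2 1447821_at ran from -0.18 to 0.049, Cux2 1450181_at from -0.38 to 0.020, Wfs1 1448411_at from -0.056 to 0.056, Rbfox3 1436450_at from -0.062 to 0.094. Flt1 1419300_at ran from -0.38 to 0.021, Cga 1418549_at from -1.98 to 0.74. Between same-numbered brains the correlations of deviations from the genotype means were small, at 0.082, 0.20 and -0.018. All pairings across genotypes ran from -0.16 to 0.20, with brain 2 against brain 2 the highest. The numbers, which 1 heterozygous label lacks, were not taken as pairs, and the replicate block changed no call.
Prox1 lies near the limit for testing, and each genotype has 3 brains.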
